A study of Mus musculus with 8 samples.

Results

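The *Id*, *Hes* and E-protein genes encode helix-loop-helix regulators that are partners or relatives of the SHARP repressors. They were chosen by their annotated gene symbols, which were *Id1*, *Id2*, *Id3*, *Id4*, *Hes1*, *Hes5*, *Tcf3*, *Tcf4* and *Tcf12*. These 9 genes, of 8251 named on the array, were represented by 10 of its 12422 probe sets that are not controls, and *Hes5* alone had more than 1. Gene expression had been measured in cortex (bregma 0 to -2 mm) from 8 individual C57/bl6 mice, labelled as 4 months old and group housed in a light-dark cycle, with 1 Affymetrix array per mouse. The 4 groups were wild-type (WT) mice at ZT4, WT mice at ZT16, SHARP1/2 double null mutants (S1/2-/-) at ZT4 and S1/2-/- mice at ZT16, with 2 mice in each. ZT is the time in hours after lights went on, so that ZT4 lies in the light phase and ZT16 in the dark phase. The mutants are germline nulls for *Bhlhe41*, the gene of SHARP1, as well as for *Bhlhe40*, the gene of SHARP2. The design asks whether these genes differ between the light and the dark phase, between the genotypes, and whether the change over time depends on the genotype.

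Basic helix-loop-helix (bHLH) factors bind DNA as dimers, typically at E boxes with the letters CANNTG. E proteins are broadly expressed bHLH activators that pair with each other or with tissue-restricted partners such as the NEUROD factors. ID proteins have the helix-loop-helix but lack the basic region that touches DNA, so that an E protein bound to an ID protein cannot occupy its sites. HES proteins are repressors that act downstream of Notch and recruit Groucho corepressors, and in brain they are best known for keeping neural progenitors undifferentiated. The SHARP proteins belong to the same wider family as HES proteins and repress clock genes through E boxes.

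The signals were MAS5 values on a linear scale, with all arrays scaled by the authors to the same trimmed mean. Median signals per array were 186 to 206, and log2 signals of paired arrays within a group correlated at 0.936 to 0.940 over all 12422 probe sets. A signal depends on the probes, so no gene's level was compared with that of another gene. Differences are log2 differences from limma, with their standard error (SE) and Benjamini-Hochberg adjusted p over the 7453 probe sets that passed a filter on low signals. All 9 genes passed this filter with 1 probe set each. The second *Hes5* probe set did not pass. Calls required an adjusted p under 0.05 together with a fold change over 1.5. The tissue is a mixture of cells, so fewer cells of a type and less RNA per cell cannot be told apart.

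None of the 9 genes was called in any of the 7 comparisons. The share of all tested probe sets that was called was itself 0.0134% for ZT16 against ZT4 in WT, 0% for the same comparison in S1/2-/- mice, 0.0939% for S1/2-/- against WT at ZT4 and 0.0134% for the genotypes at ZT16. It was 0% for the difference between the genotypes in the change over time, 0.255% for the genotypes averaged over both times and 0% for the times averaged over both genotypes. At an unadjusted p under 0.05, in contrast, 4 of 9 genes passed for ZT16 against ZT4 in WT (*Id3*, *Id4* and *Tcf3* higher at ZT16, *Tcf4* lower), where 7.61% of all tested probe sets passed. Also 4 of 9 passed for the genotypes at ZT4 (*Id4* and *Hes1* higher in S1/2-/- mice, *Id2* and *Tcf4* lower), against 7.29% of all. At ZT16, 2 of 9 passed (*Id2* and *Tcf12*, both lower in S1/2-/- mice), against 10.9%. Only *Tcf3* passed for ZT16 against ZT4 in S1/2-/- mice, against 7.31%, and only *Hes1* for the difference between the genotypes in the change over time, against 5.69%. Averaged over both times, 4 of 9 passed between the genotypes (*Id4* higher, *Id2*, *Tcf4* and *Tcf12* lower in S1/2-/- mice), against 12.4%. Averaged over both genotypes, 3 of 9 passed between the times (*Id3* and *Tcf3* higher at ZT16, *Id2* lower), against 9.38%. These comparisons share arrays. The 9 genes were also chosen with earlier results of these data known, so these counts and those that follow do not test whether the set is unusual.

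Groups that did not overlap were also counted. Between ZT16 and ZT4 in WT, both mice were higher at ZT16 for 5 of the 9 genes and lower for 1, against 17.9% and 18% of all tested probe sets. In S1/2-/- mice this held for 2 genes in each direction, against 21% and 20.4%. Both S1/2-/- mice exceeded both WT mice at ZT4 for 4 genes and lay below them for 2, against 19.5% and 19.9%, and at ZT16 for 1 gene and 3 genes, against 21% in each direction. With 4 mice against 4, no gene separated the genotypes (3.43% of all probe sets did so with S1/2-/- mice higher, 3.74% with them lower), and *Tcf3* alone separated the times, being higher at ZT16 (2.78% of all, and 2.28% in the other direction).

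The counts at an unadjusted p rested in part on single arrays. The 4 genes of the WT comparison became 1 without WT mouse 1 at ZT16, 2 without WT mouse 2 at ZT16, WT mouse 1 at ZT4 or either S1/2-/- mouse at ZT16, and 3 without any of the others. The 4 genes between the genotypes at ZT4 became 1 without S1/2-/- mouse 2 at ZT4 and 2 without WT mouse 1 at ZT4 or either S1/2-/- mouse at ZT16. The 2 genes at ZT16 became 1 without S1/2-/- mouse 2 at ZT16, and 3 without S1/2-/- mouse 1 or WT mouse 1 at that time. The 4 genes between the genotypes averaged over both times numbered 3 to 4 under every such omission. The 3 genes between the times averaged over both genotypes became 1 without S1/2-/- mouse 2 at ZT16, S1/2-/- mouse 1 at ZT4 or WT mouse 1 at ZT4, 2 without WT mouse 1 at ZT16, and 4 without WT mouse 2 at ZT4 or WT mouse 2 at ZT16. The genes behind these counts also changed. With each of the 8 arrays left out in turn, *Id4* between the genotypes at ZT4, *Tcf12* between them at ZT16 and *Tcf3* between the times in S1/2-/- mice kept an unadjusted p under 0.05 in all 8 fits. *Tcf4* kept it in 6 fits both between the genotypes at ZT4 and between the times in WT, *Id4* in 5 and *Tcf3* in 3 between the times in WT, and *Id2* in 4 and *Hes1* in 3 between the genotypes at ZT4. *Id3* kept it in 1 between the times in WT. *Hes1* kept it in 2 for the difference between the genotypes in the change over time, those without WT mouse 1 at ZT4 or WT mouse 2 at ZT16.

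**Figure D1:**
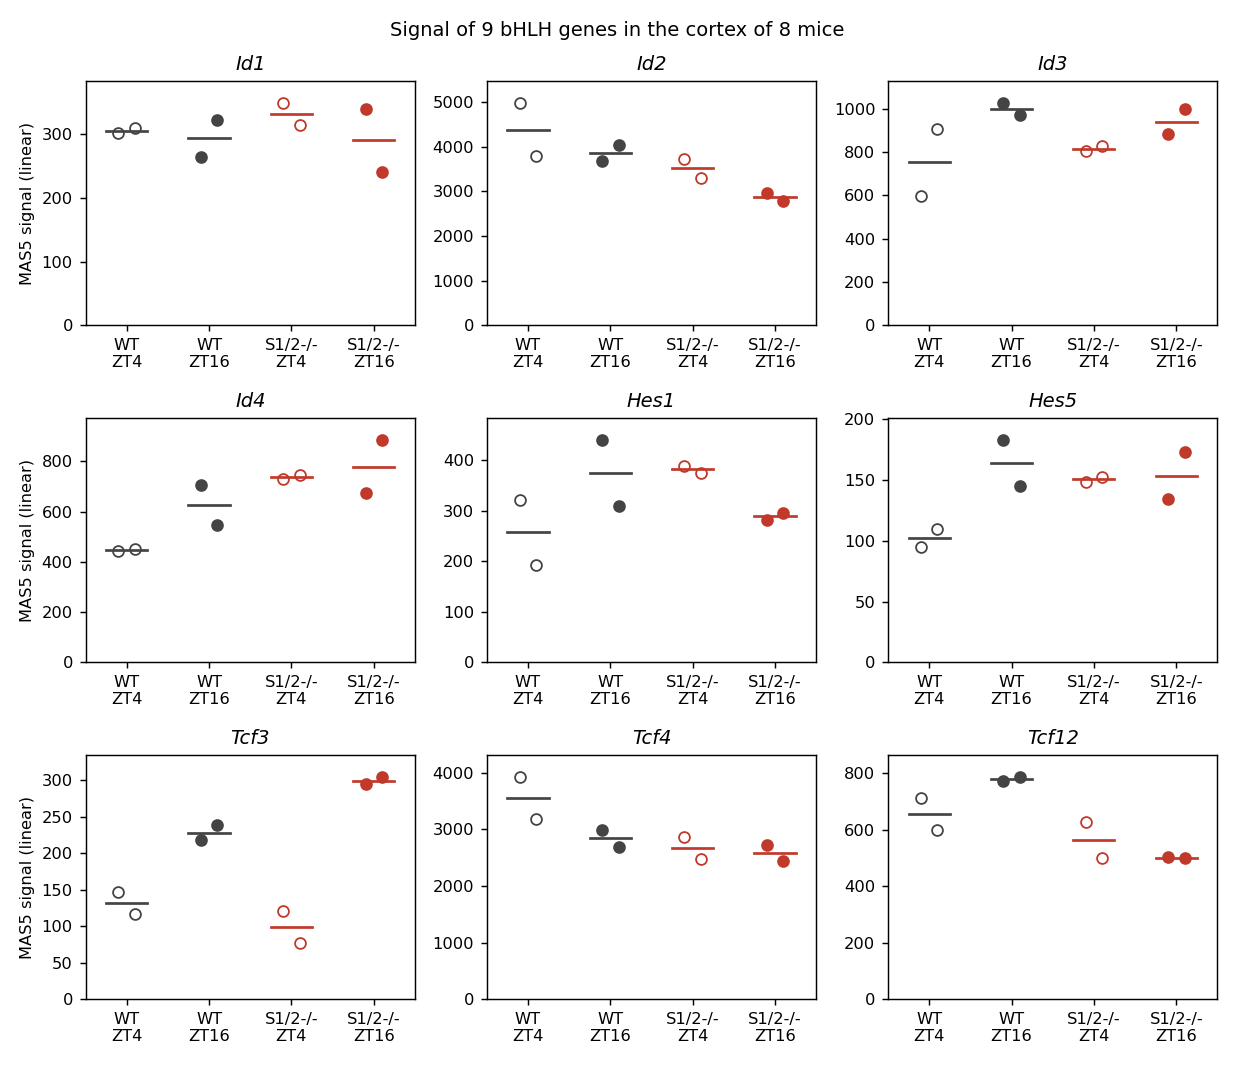
MAS5 signal (linear, each vertical axis from 0) of the probe set tested for each of the 9 genes, with 1 point per mouse and a line at the mean of the 2 mice of a group. Grey is WT and red S1/2-/-, with open points at ZT4 and filled points at ZT16. *Id3*, *Id4*, *Hes1* and *Hes5* had their lowest group mean in WT mice at ZT4, and *Id1*, *Id2*, *Tcf4* and *Tcf12* in S1/2-/- mice at ZT16.

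Upstream sequences are shown because bHLH proteins act through E boxes, for a gene with lower (*Id2*) and a gene with higher (*Id4*) signals in S1/2-/- mice and for the gene with the largest difference over time (*Tcf3*). RefSeq windows on GRCm38.p6 were at hand for 6 of the 9 genes (*Id2*, *Id3*, *Id4*, *Hes5*, *Tcf3* and *Tcf12*), with 3 windows for *Tcf12*. The 250 bases before the annotated start are printed 5′ to 3′ on the strand of the gene, and capitals mark an E box (CANNTG, which reads the same on both strands). The *Id2* window is chr12:25096093-25096342 on the minus strand, the *Id4* window is chr13:48260866-48261115 on the plus strand, and the *Tcf3* window is chr10:80433636-80433885 on the minus strand. The *Tcf3* window lies wholly inside the annotated gene, whose span reaches position 80433976, as do the *Hes5* window and 2 of the 3 *Tcf12* windows inside theirs.
Id2: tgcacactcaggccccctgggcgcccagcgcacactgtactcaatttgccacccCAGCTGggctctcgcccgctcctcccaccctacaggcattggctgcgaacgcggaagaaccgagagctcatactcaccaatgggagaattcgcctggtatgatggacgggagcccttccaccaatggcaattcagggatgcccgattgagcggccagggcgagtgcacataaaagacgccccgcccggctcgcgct
Id4: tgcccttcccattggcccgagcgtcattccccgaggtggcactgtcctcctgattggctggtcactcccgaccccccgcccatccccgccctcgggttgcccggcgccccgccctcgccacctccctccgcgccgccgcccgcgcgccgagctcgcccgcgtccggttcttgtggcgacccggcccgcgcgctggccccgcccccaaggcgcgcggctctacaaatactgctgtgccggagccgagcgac
Tcf3: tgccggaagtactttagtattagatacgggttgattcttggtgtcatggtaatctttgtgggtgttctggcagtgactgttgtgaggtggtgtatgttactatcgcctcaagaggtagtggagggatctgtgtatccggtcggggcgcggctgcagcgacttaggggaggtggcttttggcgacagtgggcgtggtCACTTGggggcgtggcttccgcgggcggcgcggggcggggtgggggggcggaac
The *Id2* window held the E box CAGCTG, starting 196 bases before the start, and the *Tcf3* window held CACTTG, starting 54 bases before it. The *Id4* window held no E box. Of the 8 windows of the 6 genes, 5 held an E box, and 66.2% of 32851 RefSeq windows of the same length did. None of the 8 held CACGTG, the E box that SHARP proteins are known to favour, which 6.02% of all windows held. The N box CACNAG, a HES site searched on both strands, was in 1 of the 8 windows (*Id4*) and in 36.7% of all windows. These are matches of letters in a short window and do not show binding.

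*Id2*, which among other roles restrains E proteins in neurons of the adult cortex, was lower in S1/2-/- mice at both times. Its probe set (93013_at) gave signals of 4973 and 3791 in WT mice at ZT4, 3687 and 4046 in WT mice at ZT16, 3731 and 3300 (3299.5) in S1/2-/- mice at ZT4, and 2958 and 2782 in S1/2-/- mice at ZT16. Within each time both S1/2-/- mice lay below both WT mice, and the 2 S1/2-/- mice at ZT16 were the lowest of all 8. Across the times the genotypes overlapped, since 1 S1/2-/- mouse at ZT4 (3731) exceeded 1 WT mouse at ZT16 (3687). The log2 difference between the genotypes was -0.31 at ZT4 (SE 0.13, adjusted p = 0.666 from limma) and -0.43 at ZT16 (SE 0.13, adjusted p = 0.344). The difference at ZT4 was -0.11 without WT mouse 1 at that time and -0.50 without WT mouse 2. Averaged over both times it was -0.37 (SE 0.09, 95% interval -0.58 to -0.16, adjusted p = 0.192). With each array left out in turn, this average ran from -0.47 to -0.27 and the difference at ZT16 from -0.50 to -0.36. The signal was also lower at ZT16 than at ZT4, by a log2 difference of -0.23 averaged over the genotypes (SE 0.09, adjusted p = 0.481), and the change over time differed between the genotypes by -0.12 (SE 0.19, 95% interval -0.54 to 0.30, adjusted p = 0.955).

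*Id4*, which in brain is tied to neural progenitors and astrocytes, was higher in S1/2-/- mice, with the larger difference at ZT4. Its probe set (96144_at) gave 445 and 453 in WT mice at ZT4, 705 and 546 in WT mice at ZT16, 728 and 747 in S1/2-/- mice at ZT4, and 673 and 883 in S1/2-/- mice at ZT16. The 2 WT mice at ZT4 were the lowest of all 8, and the other 3 groups were closer to each other. At ZT4 the signal in S1/2-/- mice was 1.64-fold that in WT mice, a log2 difference of 0.72 (SE 0.18, 95% interval 0.31 to 1.124, adjusted p = 0.320 from limma). At ZT16, where the groups overlapped, the difference was 0.31 (SE 0.18, adjusted p = 0.549). Averaged over both times it was 0.51 (SE 0.13, adjusted p = 0.185), the lowest adjusted p of any of the 9 genes in any comparison. In WT mice *Id4* was higher at ZT16 than at ZT4 by 0.47 (SE 0.18, adjusted p = 0.625). In S1/2-/- mice the same difference was 0.06 (SE 0.18, adjusted p = 0.966), and the difference between these changes was -0.40 (SE 0.26, 95% interval -0.98 to 0.17, adjusted p = 0.912).

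*Id3*, like *Id1* a target of BMP signalling and prominent in vessels, was higher at ZT16 than at ZT4 within both genotypes. Its probe set (92614_at) gave 599.6 and 909 in WT mice at ZT4, 1027 and 970.4 in WT mice at ZT16, 804 and 827 in S1/2-/- mice at ZT4, and 884 and 998 in S1/2-/- mice at ZT16. Within each genotype both mice at ZT16 lay above both mice at ZT4, although a WT mouse at ZT4 (909) exceeded an S1/2-/- mouse at ZT16 (884). The log2 difference between ZT16 and ZT4 was 0.44 in WT (SE 0.19, adjusted p = 0.630 from limma), 0.20 in S1/2-/- mice (SE 0.19, adjusted p = 0.846) and 0.32 on average (SE 0.13, adjusted p = 0.484). The difference in WT rested on WT mouse 1 at ZT4, without which it was 0.14, and it was 0.74 without WT mouse 2 at ZT4. Between the genotypes, averaged over both times, the difference was 0.03 (SE 0.13, 95% interval -0.27 to 0.32, adjusted p = 0.951).

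*Id1* (100050_at), the other BMP target prominent in vessels, showed little separation of the groups. It gave 301 and 310 (309.7) in WT mice at ZT4, 265 and 322 in WT mice at ZT16, 349 and 314 in S1/2-/- mice at ZT4, and 340.2 and 241 in S1/2-/- mice at ZT16. The mice of the last group held the second highest and the lowest signal of all. At ZT4 both S1/2-/- mice lay just above both WT mice, with a log2 difference of 0.12 (SE 0.23, adjusted p = 0.956 from limma). The log2 difference between the genotypes was 0.04 averaged over both times (SE 0.17, 95% interval -0.33 to 0.41, adjusted p = 0.939 from limma), and between the times -0.14 (SE 0.17, adjusted p = 0.808).

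*Hes1*, the Notch effector whose protein and RNA are known to oscillate in progenitors, had time differences of opposite sign in the genotypes. Its probe set (160887_at) gave 321 and 192 in WT mice at ZT4, 439 and 308 in WT mice at ZT16, 388 and 375 in S1/2-/- mice at ZT4, and 282 and 295 in S1/2-/- mice at ZT16. The WT mice varied more than the S1/2-/- mice, and the WT times overlapped, whereas both S1/2-/- mice were lower at ZT16 than both at ZT4. The log2 difference between ZT16 and ZT4 was 0.57 in WT (SE 0.28, adjusted p = 0.651 from limma) and -0.40 in S1/2-/- mice (SE 0.28, adjusted p = 0.782). The difference between these changes was -0.97 (SE 0.39, 95% interval -1.84 to -0.10), at an unadjusted p of 0.0323 and an adjusted p of 0.847. With arrays left out in turn it ran from -1.34 without WT mouse 1 at ZT4 to -0.60 without WT mouse 2 at ZT4. S1/2-/- mice exceeded WT mice by 0.62 at ZT4 (SE 0.28, adjusted p = 0.679) and had a difference of -0.35 at ZT16 (SE 0.28, adjusted p = 0.665). Without WT mouse 2 at ZT4 the WT difference between the times was 0.20 and the genotype difference at ZT4 was 0.25, and without WT mouse 1 at that time they were 0.94 and 0.99. The genotype difference at ZT16 was -0.10 without WT mouse 1 at ZT16 and -0.60 without WT mouse 2 at ZT16.

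*Hes5*, the other Notch-driven repressor of neural progenitors and astrocytes, was read by 2 probe sets of low signal. The brighter one (161051_at) gave 94.5 and 110 (109.99) in WT mice at ZT4, 183 and 145 in WT mice at ZT16, 149 and 152 in S1/2-/- mice at ZT4, and 134 and 173 in S1/2-/- mice at ZT16. As for *Id4*, both WT mice at ZT4 lay below the other 6. The log2 difference between ZT16 and ZT4 in WT was 0.67 (SE 0.35, adjusted p = 0.672 from limma), that between the genotypes at ZT4 was 0.56 (SE 0.35, adjusted p = 0.783), and that between the changes over time was -0.66 (SE 0.49, adjusted p = 0.912). The dimmer probe set (162069_at) gave 70.9 and 26.3 in WT mice at ZT4, 33.8 and 58.2 in WT mice at ZT16, 27.6 and 26.0 in S1/2-/- mice at ZT4, and 34.3 and 43.1 in S1/2-/- mice at ZT16. The WT mice at ZT4 held its highest and nearly its lowest signal, and in a fit without the filter its genotype difference at ZT4 was -0.69 (SE 0.69, adjusted p = 0.902), opposite in sign to that of the brighter probe set. With the mean of both probe sets, the time difference in WT was 0.355, the genotype difference at ZT4 was -0.065 and the difference between the changes over time was -0.085.

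*Tcf3*, the E2A gene whose transcripts encode E12 and E47, had the largest difference over time of the 9 genes. Its probe set (98040_at) gave 147 and 117 in WT mice at ZT4, 218 and 238 in WT mice at ZT16, 121 and 77.1 in S1/2-/- mice at ZT4, and 294 and 304 in S1/2-/- mice at ZT16. All 4 mice at ZT16 lay above all 4 mice at ZT4. At ZT16 both S1/2-/- mice exceeded both WT mice, while at ZT4 the genotypes overlapped. Averaged over the genotypes, the signal at ZT16 was 2.32-fold that at ZT4, a log2 difference of 1.21 (SE 0.23, 95% interval 0.70 to 1.73, adjusted p = 0.312 from limma), which ranked 7 by p among the 7453 tested probe sets. The difference was 0.80 in WT (SE 0.33, adjusted p = 0.625) and 1.63 in S1/2-/- mice (SE 0.33, adjusted p = 0.402), and these changes differed by 0.84 (SE 0.46, 95% interval -0.19 to 1.86, adjusted p = 0.881). Between the genotypes, *Tcf3* had a difference of -0.44 at ZT4 (SE 0.33, adjusted p = 0.822) and of 0.39 at ZT16 (SE 0.33, adjusted p = 0.677).

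*Tcf4*, which encodes the E protein E2-2 and must be distinguished from the Wnt effector gene *Tcf7l2*, was highest in WT mice at ZT4. Its probe set (160483_at) gave 3914 and 3191 in WT mice at ZT4, 2996 and 2682 in WT mice at ZT16, 2873 and 2476 in S1/2-/- mice at ZT4, and 2727 and 2448 in S1/2-/- mice at ZT16. Both WT mice at ZT4 lay above the other 6, which overlapped one another. S1/2-/- mice were below WT mice by a log2 difference of -0.41 at ZT4 (SE 0.13, adjusted p = 0.461 from limma), of -0.13 at ZT16 (SE 0.13, adjusted p = 0.732) and of -0.27 on average (SE 0.09, 95% interval -0.48 to -0.06, adjusted p = 0.297). In WT mice the difference between ZT16 and ZT4 was -0.32 (SE 0.13, adjusted p = 0.625), and in S1/2-/- mice it was -0.05 (SE 0.13, adjusted p = 0.965).

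*Tcf12*, which encodes the E protein HEB, was lower in S1/2-/- mice, with the larger difference at ZT16. Its probe set (98981_s_at), of a class that can match several related transcripts, gave 711 and 600 (599.99) in WT mice at ZT4, 772 and 785 in WT mice at ZT16, 627 and 502 in S1/2-/- mice at ZT4, and 503 and 500.1 in S1/2-/- mice at ZT16. At ZT16 the 2 mice of each genotype were close together and the genotypes did not overlap. At ZT4 they overlapped. The log2 difference between the genotypes was -0.63 at ZT16 (0.645-fold, SE 0.17, 95% interval -1.003 to -0.26, adjusted p = 0.281 from limma), -0.22 at ZT4 (SE 0.17, adjusted p = 0.829) and -0.43 on average (SE 0.12, adjusted p = 0.222). The change from ZT4 to ZT16 was 0.25 in WT (SE 0.17, adjusted p = 0.717) and -0.16 in S1/2-/- mice (SE 0.17, adjusted p = 0.858), a difference of -0.41 (SE 0.23, 95% interval -0.94 to 0.11, adjusted p = 0.884). The 3 E-protein genes had 3 different orders of the groups, with the highest mean in WT mice at ZT4 for *Tcf4*, in WT mice at ZT16 for *Tcf12* and in S1/2-/- mice at ZT16 for *Tcf3*.

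**Figure D2:**
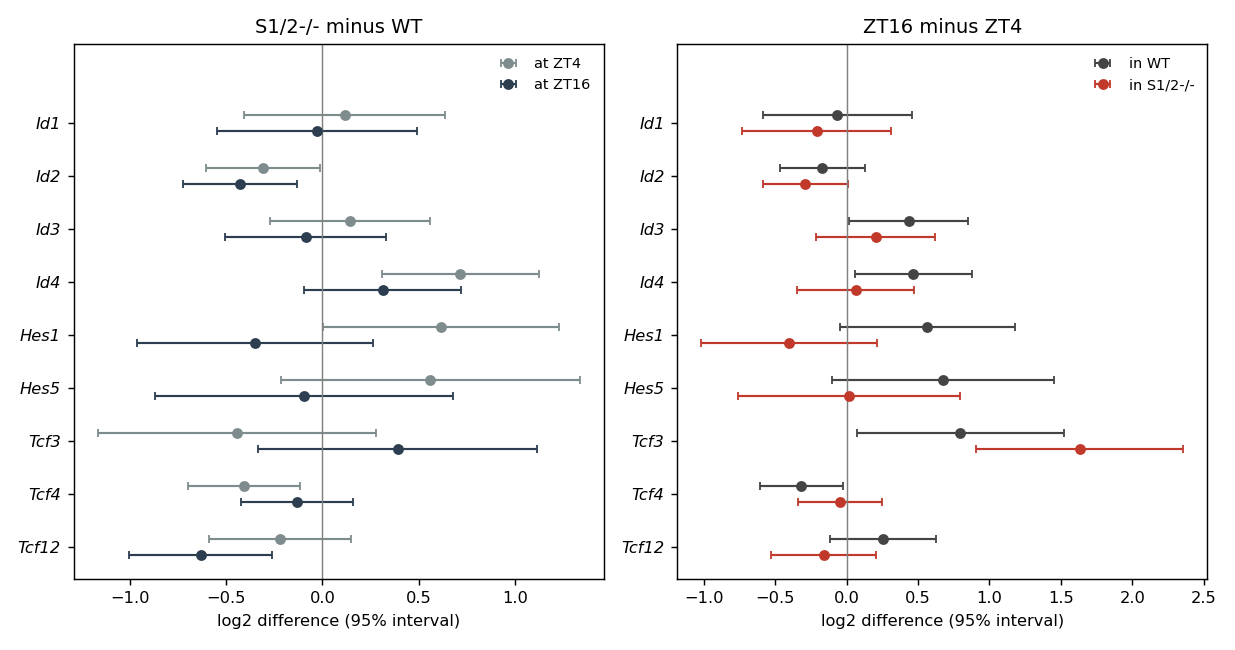
Log2 differences of the 9 genes with 95% intervals from limma, on the left S1/2-/- minus WT at ZT4 and at ZT16, and on the right ZT16 minus ZT4 in WT and in S1/2-/- mice. The intervals are not adjusted for the number of probe sets. Those of *Id4* at ZT4, *Tcf12* at ZT16 and *Tcf3* in S1/2-/- mice lie farthest from 0, at log2 differences of 0.72, -0.63 and 1.63.

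Markers of oligodendrocytes and striatal neurons had their lowest sums in WT mice at ZT4. In this group *Id4* and the brighter *Hes5* probe set were lowest and *Tcf4* was highest. The dimmer *Hes5* probe set had its highest group mean there. Of 16 oligodendrocyte markers, 8 were tested. In S1/2-/- mice at ZT4 all 8 were higher, against 49.3% of all tested probe sets, and 3 were called, against 0.0939%. Their summed signal was 17481 to 19174 in WT mice at ZT4, 23055 to 23433 in WT mice at ZT16, 29162 to 30353 in S1/2-/- mice at ZT4 and 27052 to 29271 in S1/2-/- mice at ZT16. Neither times in WT nor genotypes overlapped in this sum. Of 15 markers of striatal neurons, 4 were tested, with sums of 4689 to 5145 in WT mice at ZT4, 10794 to 15196 in WT mice at ZT16, 9825 to 14619 in S1/2-/- mice at ZT4 and 7875 to 12474 in S1/2-/- mice at ZT16. Here too WT mice at ZT4 were below all others, as for *Id4* and the brighter *Hes5* probe set. The only tested choroid plexus marker of 13, *Ttr*, had signals of 2412 and 2582 in WT mice at ZT16 and of 83.2 to 1456 in the other 3 groups.

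Markers of astrocytes and of endothelium had sums that varied less, for their size, than those of oligodendrocytes and striatal neurons. Of 19 astrocyte markers 13 were tested, with sums of 47752 to 49163 in WT mice at ZT4, 49413 to 52791 in WT mice at ZT16, 52515 to 57532 in S1/2-/- mice at ZT4 and 51016 to 53000 in S1/2-/- mice at ZT16. The 2 WT mice at ZT4 had the lowest astrocyte sums of all 8 mice. The same group was lowest for *Id4* and for the brighter, but not the dimmer, *Hes5* probe set. At ZT4, 12 of the 13 astrocyte markers were higher in S1/2-/- mice with a median log2 difference of 0.18, and at ZT16 11 were higher. Averaged over both times 2 were called, against 0.255% of all tested probe sets. Of 20 endothelial markers 12 were tested, with sums of 4322 to 4669 in S1/2-/- mice at ZT16, the highest of all 8 mice. In S1/2-/- mice at ZT4 they were 4102 to 4187. In WT mice they were 4093 to 4285 at ZT4 and 4072 to 4102 at ZT16. The labelled tissue was represented by 10 tested of 14 cortical neuron markers. Their sums at ZT4 were 23114 to 24622 in WT mice and 24761 to 26114 in S1/2-/- mice. At ZT16 they were 20846 to 24191 in WT mice and 24204.5 to 26940 in S1/2-/- mice. Within each time both S1/2-/- mice lay above both WT mice. In the remaining lists the median log2 difference between the genotypes at ZT4 was 0.13 for mural cells, 0.25 for microglia, -0.09 for meninges and stroma, -0.22 for thalamus and hippocampus, -0.03 for immature neurons and progenitors, and 0.18 for blood. For immature neurons and progenitors 6 of the 8 tested markers were lower and 2 higher in S1/2-/- mice at ZT4. Their sums in WT mice were 27532 to 27542 at ZT4 and 25500 to 26272 at ZT16. In S1/2-/- mice they were 25665 to 28026 at ZT4 and 26140 to 26756 at ZT16. The low sums of WT mice at ZT4 were thus not shared by this list. At ZT16 the median was 0.41 for thalamus and hippocampus, opposite in sign to that at ZT4. There 6 of 9 genes were higher in S1/2-/- mice and 2 had an unadjusted p under 0.05. Of all tested probe sets, 50.8% were higher at ZT16 and 10.9% had such a p. For cortical neurons at ZT16 the median was 0.20, with 7 of 10 higher and 3 at an unadjusted p under 0.05. For oligodendrocytes it was 0.54, with 8 of 8 higher. It was 0.24 for astrocytes and 0.16 for microglia, and between -0.18 (striatal neurons) and 0.08 (immature neurons and progenitors) in the other lists of more than 1 tested gene. None of these lists was at 0 in any mouse. The part of these markers in the differences of the 9 genes was not tested.

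**Figure D3:**
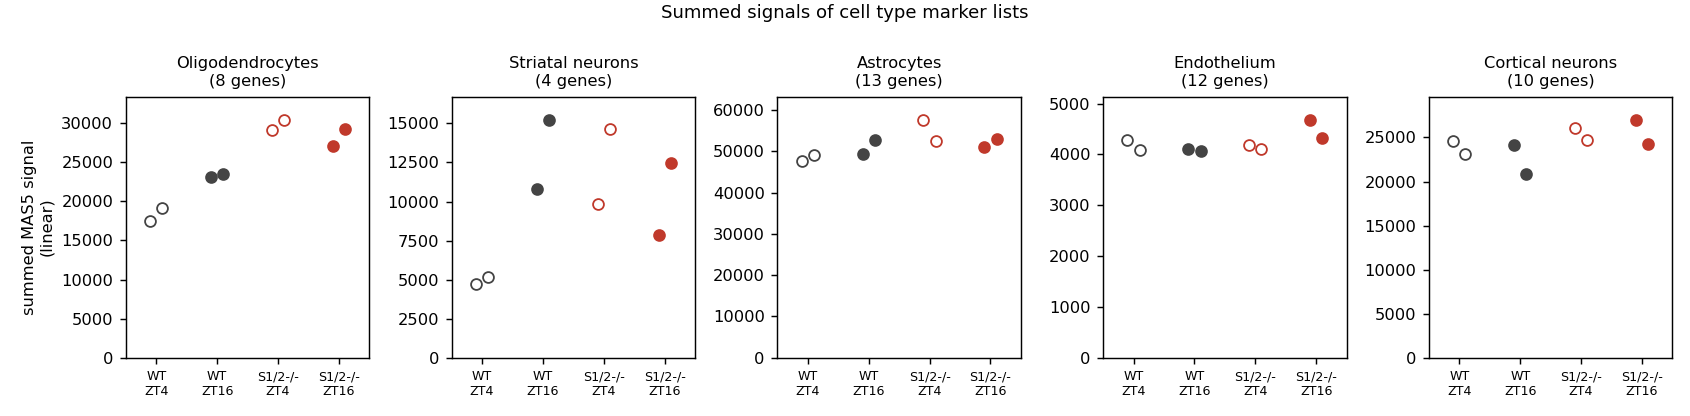
Summed MAS5 signal (linear, each vertical axis from 0) of the tested genes of 5 marker lists, with 1 point per mouse, grey for WT and red for S1/2-/-, open at ZT4 and filled at ZT16. The sums for oligodendrocytes, striatal neurons and astrocytes were lowest in the 2 WT mice at ZT4. They were 17481 to 19174, 4689 to 5145 and 47752 to 49163 there.

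The relatives and partners of the 9 genes were described by lists of pathway genes, of which none was called in any comparison. Of 10 other *Hes*, *Hey* and SHARP genes, 3 were tested (*Bhlhe40*, *Hes6* and *Hey1*). *Hey1*, a Notch target related to *Hes1*, gave 655 and 753 in WT mice at ZT4, 718 and 1015 in WT mice at ZT16, 949 and 1062 in S1/2-/- mice at ZT4, and 668 and 962 in S1/2-/- mice at ZT16. As for *Hes1*, the genotypes did not overlap at ZT4, where the log2 difference was 0.52 (SE 0.21, adjusted p = 0.633 from limma). Of all tested probe sets, 19.5% were likewise higher in S1/2-/- mice without overlap at that time. *Bhlhe40*, a targeted gene, was still detected in S1/2-/- mice, with signals of 834 to 1043 against 983 to 1285 in WT mice and a mean log2 difference of -0.30 (SE 0.10, adjusted p = 0.288). The sources used here do not say whether this probe set reads the deleted part of the gene, so it is no check of the labels, and *Bhlhe41* was not analysed here.

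Of 40 tissue-restricted bHLH partners of E proteins, 11 were tested. They were *Neurod1*, *Neurod2*, *Neurod6*, *Nhlh1*, *Lyl1*, *Myod1*, *Myog*, *Twist2*, *Hand1*, *Scx* and *Msc*, and so not only factors of neurons. At ZT16, 9 were higher and 2 lower in S1/2-/- mice (50.8% of all tested probe sets were higher). Their median log2 difference was 0.45 against 0.01 over all tested probe sets. Of the 11, 3 had an unadjusted p under 0.05, as did 10.9% of all tested probe sets. These 3 were *Neurod2*, *Myog* and *Myod1*. *Neurod2*, an activator in cortical excitatory neurons, read 536 and 513 for WT at ZT16, against 709 and 723 for S1/2-/-, a difference of 0.45 (SE 0.16, adjusted p = 0.365 from limma). The other 2 are muscle factors, with signals of 104 to 137 against 254 to 400.3 for *Myog* and of 106 to 193 against 279 to 294 for *Myod1* in the same groups. At ZT4 *Myog* read 123 and 337 in WT mice and 302 and 164 in S1/2-/- mice. Whether such probe sets read their genes in cortex was not tested, so the list median is no measure of partners in cortical neurons. At ZT4 the partners had a median of -0.02, with 5 higher and 6 lower.

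Of 7 genes of the Groucho corepressor family 4 were tested. These were *Tle1*, *Tle3*, *Tle4* and *Tle5*, the last of which is not a full-length member. In S1/2-/- mice all 4 had higher means at ZT16 than at ZT4, with a median log2 difference of 0.21. Only 1 of them, *Tle3*, had an unadjusted p under 0.05, as did 7.31% of all tested probe sets. In WT 3 of 4 had higher means at ZT16, with a median of 0.12, and averaged over the genotypes all 4 did, with a median of 0.15. The medians over all tested probe sets were -0.0027 in both genotypes and -0.0041 on average. *Tle3*, one of the full-length Groucho family corepressors, gave 340.1 and 345 in WT mice at ZT4, 386 and 414 in WT mice at ZT16, 376 and 306 in S1/2-/- mice at ZT4, and 467 and 567 in S1/2-/- mice at ZT16. All 4 mice at ZT16 exceeded all 4 at ZT4, as for *Tcf3*, with an average difference of 0.41 (SE 0.14, adjusted p = 0.407 from limma). This order held for 2.78% of all tested probe sets.

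Of 40 Notch pathway genes 18 were tested, and 13 were higher in S1/2-/- mice at ZT4, as were 49.3% of all tested probe sets, with a median log2 difference of 0.17, against 9 of 18 at ZT16 with a median of 0.01. *Rbpj*, which encodes the DNA-binding partner of Notch, gave 307 and 391 in WT mice at ZT4, 272 and 279 in WT mice at ZT16, 342 and 389 in S1/2-/- mice at ZT4, and 212 and 282 in S1/2-/- mice at ZT16. All 4 mice at ZT16 were below all 4 at ZT4, with an average difference of -0.45 (SE 0.16, adjusted p = 0.439 from limma). This order held for 2.28% of all tested probe sets. *Aph1a*, a subunit of the gamma-secretase that releases the Notch intracellular domain, gave 214 to 290 (289.5) in the 4 WT mice and 340.2 to 389.7 in the 4 S1/2-/- mice, with no overlap. Its average difference was 0.55 (SE 0.16, adjusted p = 0.259). Of all tested probe sets, 3.43% had all 4 S1/2-/- mice above all 4 WT mice.

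Of 52 genes of the BMP and SMAD pathway, which drives *Id* genes in many cells, 23 were tested. Their median log2 differences between the genotypes were 0.05 at ZT4 and 0.11 at ZT16, and 0.02 over time in WT. *Eng*, an endothelial coreceptor, had signals of 551 to 677 in the 4 mice at ZT4 and of 687 to 834 in the 4 mice at ZT16, with an average difference of 0.32 (SE 0.11, adjusted p = 0.414 from limma). In 2.78% of all tested probe sets all 4 mice at ZT16 likewise lay above all 4 at ZT4.

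The patterns most like those of the 9 genes over the 8 mice were found by Pearson's r of log2 signals, as a description over the tested probe sets. For *Id1* they were *Tek* (0.945), the endothelial angiopoietin receptor gene, and *Igfbp4* (0.918). For *Id2* they were *Ldhb* (0.974) and *Seh1l* (0.956), and for *Id3* *Cpox* and *Cish* (both 0.928). *Id4* was followed most closely by *Caml* (0.946) and *Dpysl3* (0.942), *Hes1* by *Slain1* (0.928) and *Cyp51* (0.915), and *Hes5* by *Doc2b* (0.975) and *Klf10* (0.925). *Tcf3* was followed by *Tspyl4* (0.973) and *Ubxn11* (0.951), *Tcf4* by *Ttc7b* (0.965) and *Ruvbl1* (0.962), and *Tcf12* by *Cse1l* (0.951) and *Hnrnpa2b1* (0.949). None of these genes belonged to the 9, and each r is over the same 8 arrays and so includes any difference shared by a whole array.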

How the data were processed

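The authors deposited 1 table of MAS5 signal intensities, on a linear scale and scaled to a common trimmed mean, for the 8 arrays. The labels give Trizol extraction, whereas the methods give columns and 1 round of amplification. Probe sets were named through the array annotation (10833 with 1 symbol, 396 with several, 1193 with none), and 66 controls were left out. Signals under 1, of which there were 64, were set to 1 before log2. The 7453 probe sets with a mean log2 signal of at least 6.79, the 40th percentile, entered a single fit of 4 group means (limma 3.58.1 under R 4.3.3) with an intensity trend, leaving 4 residual degrees of freedom. The members and lists were chosen with earlier results of these data known. Named genes were all members, the called list genes, the up to 4 genes per pathway list with the lowest p in any comparison (values given for some), and the 2 probe sets most correlated with each member. For a gene with several probe sets, the one with the highest mean was tested. The replicates were individual mice, and their number limits the precision. The alternatives were other filters, scalings, floors and variance models, ANOVA, fits of the compared groups alone, a replicate block and each array left out. The steps were tested on simulated data.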

Additional observations from a re-analysis of the deposited data

How the results depend on the processing

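No gene of the 9 passed an adjusted p under 0.05 with a fold over 1.5 under any alternative run. By ANOVA with unadjusted p, 2 of the 9 passed for ZT16 against ZT4 in WT (*Hes5* and *Tcf3*), 1 for the same comparison in S1/2-/- mice (*Tcf3*), 1 for the genotypes at ZT4 (*Id4*), 1 at ZT16 (*Tcf12*), and 1 for the times averaged (*Tcf3*). The lowest adjusted p under an alternative was 0.0505, for *Id4* between the genotypes averaged over both times. With 2 mice in a group, a missing call does not show that a gene did not differ, and where an array was left out its group's remaining mouse was assumed to vary like the other groups.

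The number of all probe sets called moved as follows, and the cause was not tested. For ZT16 against ZT4 in WT it was 1, and became 0 without a filter, 4 with the filter at the 60th percentile, 5 with median centring, 0 without the intensity trend, 0 by ANOVA with adjusted p, 140 with unadjusted p, 2 with the compared groups alone, and 0 to 100 with each array left out. In S1/2-/- mice it was 0, and became 114 by ANOVA with unadjusted p and 0 to 1 with arrays left out. For the genotypes at ZT4 it was 7, and became 12 with the filter at the 60th percentile, 11 with median centring, 0 without the trend, 0 by ANOVA with adjusted p, 168 with unadjusted p, 13 with the compared groups alone, and 0 to 14 with arrays left out. At ZT16 it was 1, and became 0 without a filter, 6 with the filter at the 60th percentile, 0 without the trend, 0 by ANOVA with adjusted p, 195 with unadjusted p, and 0 to 154 with arrays left out. The difference between the genotypes in the change over time had 0, 184 by ANOVA with unadjusted p, and 0 to 17 with arrays left out. The genotypes averaged over both times had 19, 11 without a filter, 11 with median centring, 0 without the trend, 0 by ANOVA with adjusted p, 107 with unadjusted p, and 1 to 88 with arrays left out. The times averaged over both genotypes had 0, 73 by ANOVA with unadjusted p, and 0 to 35 with arrays left out. Without WT mouse 1 at ZT16 the counts were 100 in WT, 13 at ZT4, 154 at ZT16, 17 for the difference in the change over time, 88 for the genotypes averaged and 35 for the times averaged. At ZT4 the highest count, 14, came without WT mouse 2 at ZT16.

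The deviations of mice with the same replicate number correlated at -0.001 to 0.0982 between groups. Correlations this weak do not show a pairing by number, but they cannot exclude one. With the replicate number as a block, 10 probe sets were called for ZT16 against ZT4 in WT, 13 between the genotypes at ZT4, 0 at ZT16, 2 for the difference in the change over time, 13 between the genotypes averaged, and none of the 9 genes in any comparison.

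Of 1100 recomputed differences of the 9 genes, 37 changed sign, none of them in a comparison in which the gene had an unadjusted p under 0.05. With arrays left out in turn, the log2 differences that changed sign ran as follows. Between the times in WT the range was -0.36 to 0.027 for *Id2* and -0.20 to 0.077 for *Id1*. Between the times in S1/2-/- mice the range was -0.17 to 0.20 for *Hes5*, -0.15 to 0.061 for *Tcf4*, -0.32 to 0.00058 for *Tcf12*, -0.46 to 0.040 for *Id1* and -0.13 to 0.26 for *Id4*. Between the genotypes at ZT4 the range was -0.16 to 0.44 for *Id3*. Between the genotypes at ZT16 the range was -0.28 to 0.089 for *Hes5*, -0.28 to 0.22 for *Id1* and -0.18 to 0.00036 for *Id3*. In the change over time between the genotypes the range was -0.53 to 0.069 for *Id3*, -0.32 to 0.074 for *Id2* and -0.39 to 0.10 for *Id1*. Between the genotypes averaged over both times the range was -0.12 to 0.18 for *Id3*, -0.19 to 0.14 for *Tcf3*, -0.052 to 0.32 for *Hes1* and -0.081 to 0.17 for *Id1*. Between the times averaged over both genotypes the range was -0.10 to 0.27 for *Hes1* and -0.034 to 0.13 for *Tcf12*. With quantile normalization and with median centring, the difference between the times in S1/2-/- mice was -0.029 and -0.028 for *Hes5*, and that between the genotypes averaged over both times was -0.0072 and -0.024 for *Id1*. With median centring the latter was -0.039 for *Id3*. With the mean of both probe sets, the difference between the genotypes for *Hes5* was -0.065 at ZT4 and -0.11 averaged over both times.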
